A study of Mus musculus with 4 samples.

Results

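The binding maps of Pax6 and Etv6 were compared peak by peak, using 1 chromatin immunoprecipitation sequencing (ChIP-seq) library for each factor. Both were made from mouse cells named NS, labelled as neural progenitors and derived in culture from embryonic stem cells. The antibody, M2, recognises FLAG, a short peptide tag fused to the protein under study. The members were every deposited peak on chromosomes 1 to 19, 16233 for Pax6 and 30368 for Etv6, which together are 46601 of the 125574 peaks of the 4 libraries in the series. Peaks were counted as shared, or matched, when they overlapped by at least 1 bp. The other libraries, a FLAG library whose title names EGFP and OK and a library for histone H3 dimethylated at lysine 4 (H3K4me2), were used only to sort Pax6 and Etv6 peaks.

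All groups shared strain 129/SvJ, passages 15 to 18 and growth in 10 ng/ml each of EGF and FGF-2. The titles of the Pax6 and Etv6 libraries name NS cells, and those of the other libraries name N31. Which promoter drove the tagged proteins, how much protein was made and whether both libraries came from the same line or clone are not given in the sources used here. For H3K4me2 the title also names Oct4, EGFP and 0 hr. There was 1 library per factor and no control file, so no test between the factors was possible. All intervals are exact 95% intervals that treat peaks as independent, cover counting error only and say nothing of the spread between cultures. The lists hold no expression values, so the labelled cell type was not checked against its markers.

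Pax6 is a transcription factor with a paired domain and a homeodomain, both of which bind DNA, and it is known for its part in the development of the forebrain and the eye. Etv6 belongs to the ETS family, whose shared domain recognises DNA with a GGAA core, and it is known mainly as a repressor that can join to itself through its pointed domain. In ChIP-seq, fragments bound by the tagged protein pile up around the bound place. The position with the most fragments is the summit of the peak, and the tags of a peak are the sequenced fragment ends counted in it.

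The libraries differed in usable depth. After removal of duplicates the Pax6 library kept 5288154 of 27560633 tags and the Etv6 library 24071748 of 31059965, so the ratio of kept tags was 0.220. The redundant rate was 81% for Pax6 and 22% for Etv6. The median peak held 19 tags in the Pax6 list and 54 in the Etv6 list, and the weakest held 10 and 18. Depth and factor cannot be told apart in the numbers of peaks, and a place with equal shares of both libraries would have 0.220 Pax6 tags per Etv6 tag.

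Most Pax6 peaks had an Etv6 peak over them, and the match was almost always of a single peak with a single peak. An Etv6 peak overlapped 11820 Pax6 peaks, or 72.8% (72.1 to 73.5), and a Pax6 peak overlapped 11798 Etv6 peaks, or 38.9% (38.3 to 39.4). Of the matched Pax6 peaks, 11792 had 1 Etv6 peak and 28 had 2. Of the matched Etv6 peaks, 11748 had 1 Pax6 peak and 50 had 2. The Etv6 peaks with 2 Pax6 peaks were long, with a median of 2426 bp (2316 to 2703), and the Pax6 summits in them lay a median of 1170 bp apart (1094 to 1315).

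Matched peaks covered nearly the same ground. The Pax6 peak lay wholly inside its Etv6 partner in 50.8% of the matches (49.9 to 51.7), and the reverse held in 8.60% (8.10 to 9.12). The overlap covered a median of 76.7% of the Etv6 peak (76.3 to 77.1). The Pax6 summit lay inside the partner peak in 99.1% of the matches (98.9 to 99.2) and the Etv6 summit in 96.9% (96.6 to 97.2). Few matches lay near the 1 bp minimum. The shortest overlap was 13 bp, 5 matches overlapped by less than 50 bp, and among the unmatched peaks 11 of Pax6 and 19 of Etv6 came within 50 bp of a peak of the other list. Within 500 bp were 94 and 173 unmatched peaks.

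A Pax6 peak was more often matched the more tags it had. Of Pax6 peaks with 10 to 12 tags 45.5% were matched (43.7 to 47.3), of those with 17 to 23 tags 76.5% (75.2 to 77.8), and of those with 60 tags or more 98.2% (96.7 to 99.1). Among the latter, 550 of 560 peaks had an Etv6 partner. Etv6 peaks followed the same order, from 11.1% (9.89 to 12.5) at 18 to 29 tags to 87.8% (84.3 to 90.7) at 240 tags or more.

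Summits of matched peaks lay close together, and by coordinate they fell about equally on either side of each other. The median distance was 75.5 bp (73 to 77). Summits were within 25 bp of each other in 19.3% of the matches (18.6 to 20.004), within 50 bp in 36.1% (35.3 to 37.0), within 200 bp in 82.9% (82.2 to 83.5) and within 500 bp in 94.4% (93.98 to 94.8). The Pax6 summit had the higher coordinate in 49.5% of the matches whose summits differed (48.6 to 50.4), and the median signed spacing was -1 bp (-3 to 1). The places were not oriented by strand, motif or gene, so these values cannot show whether a factor keeps to a side. The fullest 10-bp bin was the one centred on 0, with 506 matches, and 43 matches had both summits on the same base. The median distance was below the fragment length that the peak caller estimated, 268 bp for Pax6 and 203 bp for Etv6.

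**Figure D1:**
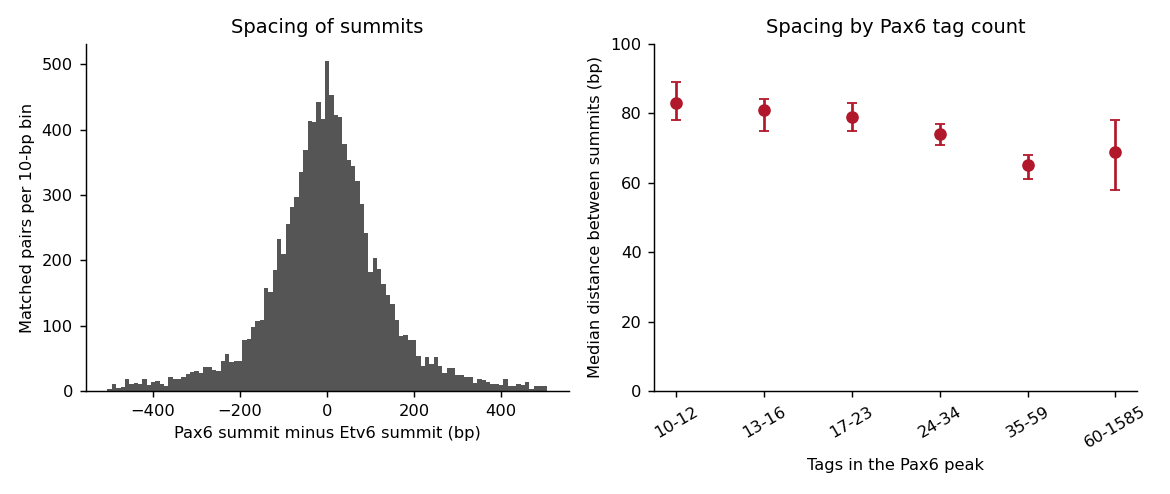
Left, number of matched pairs (y axis) in 10-bp bins of the Pax6 summit position minus the Etv6 summit position (x axis, bp), out to about 500 bp on either side. Right, median distance between summits (y axis, bp, with 95% intervals) by the number of tags in the Pax6 peak (x axis). The bins are highest at 0, with 506 pairs, and fall off to both sides, and the median distance is 83 bp at 10 to 12 Pax6 tags and 65 bp at 35 to 59.

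The spacing was tighter where the Pax6 peak rested on more tags. At 10 to 12 Pax6 tags the median distance was 83 bp (78 to 89), and 31.9% of the summits (29.4 to 34.4) were within 50 bp. At 35 to 59 tags it was 65 bp (61 to 68), and 40.8% (38.6 to 43.1) were within 50 bp. At 60 tags or more it was 69 bp (58 to 78), an interval that holds the value of the class before it. Spacing also differed with H3K4me2, a mark measured in the cells named N31. The labels do not say whether NS and N31 cells are the same line, so the mark may not be that of the cells with these peaks. Matches whose Pax6 summit lay in an H3K4me2 peak had a median distance of 82 bp (79 to 84), and those outside 70 bp (67 to 72). The Etv6 peaks were longer inside H3K4me2, with a median of 1366 bp (1351 to 1380) against 1198 bp (1187 to 1206). The part of peak length in that difference was not tested.

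A small group of matches had distant summits. In 661 matches the summits were over 500 bp apart and in 173 over 1000 bp, with 4165 bp as the farthest. The Etv6 peaks of the 661 had a median length of 1900 bp (1832 to 1952), against 1254 bp (1245 to 1262) for the rest, and their Pax6 peaks 1296 bp (1233 to 1337) against 1036 bp (1029 to 1044).

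The same Pax6 peaks gave a yardstick for the spacing where the EGFP_OK library, the FLAG library named for EGFP and OK, also had a peak. At 2730 Pax6 peaks matched by both, the Etv6 summit lay a median of 79 bp away (76 to 84) and the EGFP_OK summit 127.5 bp (117 to 136). The Etv6 summit was the nearer in 60.7% of these (58.8 to 62.5), the EGFP_OK summit in 38.6% (36.8 to 40.5), and 18 were equal. The Etv6 and EGFP_OK summits themselves lay 115 bp apart (109 to 124). The Etv6 peaks here held a median of 85 tags (83 to 88) and the EGFP_OK peaks 58 (56 to 60), and the part of tag number in the spacing was not tested.

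Most matched peaks held more Pax6 tags per Etv6 tag than the libraries as wholes. Dividing the Pax6 tags of a match by its Etv6 tags gave a median ratio of 0.289 (0.286 to 0.293), against 0.220 for the kept tags, and 73.6% of the matches (72.8 to 74.4) were above the latter. From the 5th to the 95th percentile the ratio ran from 0.136 to 0.6. The lowest was 0.0381 and the highest 2.28, and the Pax6 peak held more tags than its partner in 46 matches. Counted per kb of peak, the median ratio was 0.365 (0.363 to 0.367), since Pax6 peaks were shorter, at a median of 0.808 of the partner's length (0.802 to 0.813). Across the 11820 matches, Spearman's rho between the tags of both peaks was 0.623. It describes places that share mappability and length in both libraries.

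The ratio fell steadily with the size of the Etv6 peak, and at the largest peaks it was below the ratio of the libraries. At Etv6 peaks of 18 to 29 tags, of which 11.1% were matched, the median ratio was 0.519 (0.5 to 0.552). At 60 to 79 tags, with 44.0% matched, it was 0.284 (0.278 to 0.292). At 160 tags or more, where 84.5% (82.7 to 86.3) of 1604 Etv6 peaks were matched, it was 0.209 (0.202 to 0.216), an interval wholly below 0.220. A ratio exists only where the Pax6 library also gave a peak, and a small Etv6 peak with few Pax6 tags could not give one. The median over all matches is therefore the value of the called pairs, not of the places Etv6 occupied. The classes were cut by Etv6 tags, which are also the divisor of the ratio, and Etv6 peak length was not held equal. The part of both in the fall, and in the value below 0.220, was not tested.

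**Figure D2:**
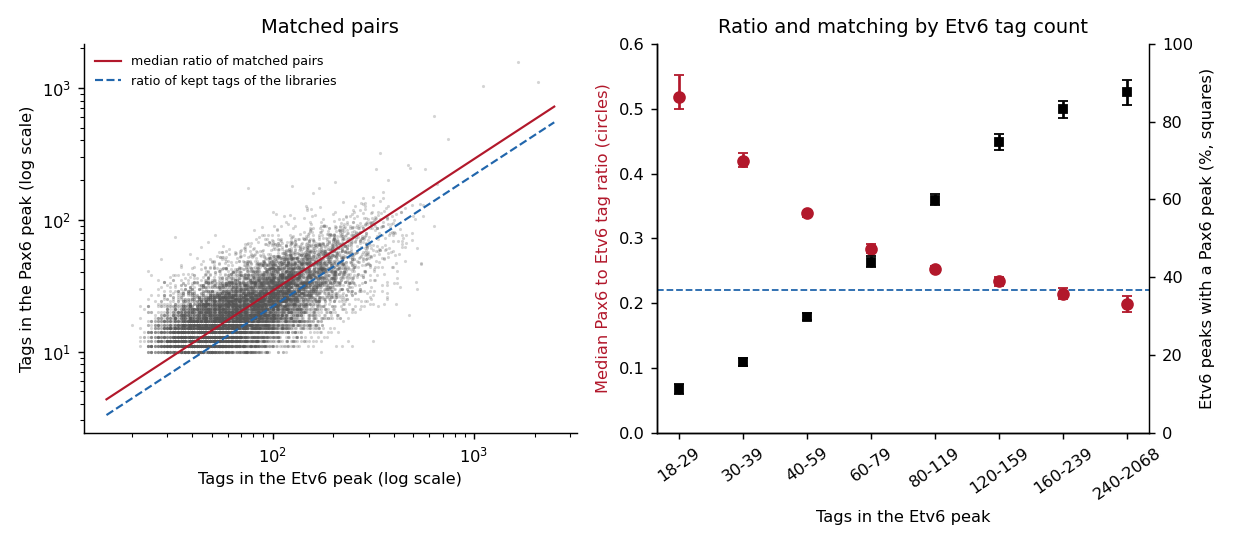
Left, tags of each matched pair in the Etv6 library (x axis) and the Pax6 library (y axis), both on log scales, with lines at the median ratio of 0.289 and at the ratio of kept tags of 0.220. Right, median tag ratio (circles, left axis) and share of Etv6 peaks with a Pax6 peak (squares, right axis) by the number of tags in the Etv6 peak, with 95% intervals. The ratio falls from 0.519 to 0.198 while the matched share climbs from 11.1% to 87.8%, and the dashed line marks 0.220.

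The tag ratio was lower inside H3K4me2 than outside it, except at the largest Etv6 peaks. The median ratio was 0.267 (0.263 to 0.270) at the 6090 matches with a Pax6 summit in H3K4me2 and 0.314 (0.310 to 0.319) at the 5730 outside. Pax6 tags were nearly equal, with medians of 22 (21 to 22) and 21 (21 to 21), and Etv6 tags differed, with 86 (85 to 88) and 67.5 (66 to 69). Etv6 peaks were also longer inside, with medians of 1366 and 1198 bp, and the part of peak length in the ratios was not tested. Below the largest class, the order was the same among Etv6 peaks of like tag number. From 80 to under 120 Etv6 tags the median ratio was 0.244 (0.238 to 0.250) inside and 0.262 (0.255 to 0.268) outside. From 120 to under 160 tags it was 0.223 (0.216 to 0.232) and 0.253 (0.240 to 0.271). At 240 tags or more the order turned round, with 0.201 (0.189 to 0.216) inside and 0.178 (0.164 to 0.218) outside, with overlapping intervals. Matching followed the same order in the smaller classes. At 60 to 79 Etv6 tags 38.8% (37.0 to 40.6) of the Etv6 peaks inside H3K4me2 were matched and 50.9% (48.8 to 53.0) of those outside. From 160 to under 240 tags the shares were close, 83.7% (80.9 to 86.2) inside and 82.5% (78.3 to 86.2) outside, and at 240 tags or more the inside share was the higher, with 91.0% (87.2 to 94.0) inside and 80.7% (73.2 to 86.9) outside.

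Matches far from the median ratio differed in H3K4me2 and in peak size between the 2 sides. A ratio at least 2-fold above the median, 0.578 or more, was found in 697 matches, or 5.90% of all, and one at least 2-fold below, 0.145 or less, in 772, or 6.53%. Inside H3K4me2 4.22% of the matches were on the high side and 8.70% on the low side, and outside it 7.68% and 4.22%. Seen from these matches, 36.9% (33.3 to 40.6) of the high side and 68.7% (65.2 to 71.9) of the low side had a Pax6 summit in H3K4me2, against 51.5% (50.6 to 52.4) of all matches. The sides also differed in the size of the Etv6 peak, which is part of the ratio, with medians of 138 tags (134 to 144) on the low side and 44 (42 to 46) on the high side. Since a Pax6 peak holds at least 10 tags, only larger Etv6 peaks can reach the low side. The Etv6 peak lengths, 1901.5 bp (1819 to 1961) and 983 bp (964 to 999), go with that choice, and the part of peak size in the H3K4me2 shares was not tested. Pax6 peak lengths ran the other way, 908.5 bp (881 to 930) on the low side and 1189 bp (1166 to 1213) on the high side. The part of peak length in the 2-fold differences was not tested either. The interval of a single ratio lay wholly above the median in 13.2% (12.6 to 13.8) of the matches and wholly below in 13.8% (13.2 to 14.5).

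The strongest Pax6-leaning matches lay on chromosome 15 and a few other places. The highest-ranked of them was the Pax6 peak from 61051716 to 61055219 on chromosome 15 in mm9, with 173 tags over an Etv6 peak of 76 tags, a ratio of 2.28 (1.73 to 3.02). On chromosome 13 the Pax6 peak from 10694669 to 10696312 had 74 tags and its Etv6 partner 33, a ratio of 2.24 (1.47 to 3.49), with summits 7 bp apart. The next were on chromosome 15 from 62020929 to 62023594 with 181 and 125 tags, on chromosome 16 from 39052554 to 39053632 with 50 and 28 tags, and on chromosome 15 from 48300142 to 48302346 with 77 and 52 tags. Of these 5 matches, 3 were on chromosome 15, and the one at 62020929 was the only one of the 5 in H3K4me2. In all 5 the Pax6 peak was longer than its Etv6 partner, with 3504 against 1208 bp in the first and 1644 against 925 bp on chromosome 13. The ratios count the tags of whole peaks, and the part of peak length in them was not tested.

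The strongest Etv6-leaning matches joined a weak Pax6 peak to a long Etv6 peak. On chromosome 3 an Etv6 peak from 89221194 to 89226474 held 478 tags and its Pax6 partner 19, a ratio of 0.0397 (0.0237 to 0.0628), with summits 20 bp apart. On chromosome 11 an Etv6 peak from 98568728 to 98572321 held 315 tags against 12, a ratio of 0.0381 (0.0195 to 0.0675). The others were on chromosome 2 from 128563210 to 128565578 with 248 Etv6 and 11 Pax6 tags, on chromosome 18 from 35996395 to 36002941 with 520 and 30, and on chromosome 6 from 108485366 to 108487965 with 408 and 23. Summits lay within 193 bp at 4 of these 5, and 760 bp apart at the one on chromosome 2. There the same Etv6 peak also overlapped a larger Pax6 peak, from 128564210 to 128565164 with 29 tags, whose summit was 58 bp from the Etv6 summit and whose ratio was 0.117. The low ratio at that place is thus one of 2 Pax6 peaks under a single Etv6 peak. In all 5 matches the Pax6 peak was much the shorter, with 718 against 5281 bp on chromosome 3 and 944 against 6547 bp on chromosome 18. These ratios also count the tags of whole peaks, and the part of peak length in them was not tested.

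The 5 sites that ranked high in both lists had ratios between 0.265 and 0.538, none of them 2-fold from the median. The best ranked outside the top 20 of any library was a broad region on chromosome 17, with the Pax6 peak from 39979745 to 39986162 holding 1112 tags and its Etv6 partner 2068, a ratio of 0.538 (0.499 to 0.579). Its folds over the local background, the authors' own values, were only 2.91 in the Pax6 list and 3.25 in the Etv6 list. The region also had an EGFP_OK peak, and without a control binding there and signal common to any library cannot be told apart. The next, on chromosome 15 from 50280635 to 50282005, had 130 Pax6 and 491 Etv6 tags, a ratio of 0.265 (0.217 to 0.322), with summits 4 bp apart. Its Etv6 peak also overlapped a second Pax6 peak, from 50282097 to 50283904 with 80 tags. A site on chromosome 10, from 27132834 to 27134639, had a ratio of 0.404. Those from 37992935 to 37994283 on chromosome 3 and from 79893512 to 79895009 on chromosome 2 had ratios of 0.306 and 0.315. The sites on chromosomes 3 and 2 lay outside H3K4me2, and the other 3 lay inside.

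Most regions in the top 20 of both lists had near-equal tags. There were 9 of them, all 9 in H3K4me2 and in the EGFP_OK list as well, with a median ratio of 0.933. Of all matches, 51.5% lay in H3K4me2 and 23.1% had an EGFP_OK peak. The regions were chosen by high scores in both lists, called without a control and with at most 1 tag per position. The part of that choice and of that limit in the near-equal tags was not tested. Without a control library, binding of the factors at these 9 regions and high signal common to any library cannot be told apart. In 7 the ratio lay between 0.735 and 1.02, as on chromosome 9 from 35112296 to 35113374 with 608 Pax6 and 636 Etv6 tags and on chromosome 2 from 98506199 to 98507685 with 1585 and 1657. The remaining pair, both on chromosome 15, had lower ratios. The region from 8755450 to 8757408 had 244 and 570 tags, a ratio of 0.428 (0.367 to 0.498), and the one from 74915751 to 74917668 had 188 and 654, a ratio of 0.287 (0.243 to 0.339), close to the median of all matches.

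Unmatched Pax6 peaks were weak and mostly away from H3K4me2. There were 4413, with a median of 14 tags (14 to 14) against 21 (21 to 22) in matched peaks, and 24.9% (23.7 to 26.2) of their summits lay in H3K4me2, against 51.5% (50.6 to 52.4). Their folds were close, with the authors' median at 10.45 (10.29 to 10.56) against 10.56 (10.56 to 10.59) for matched peaks. The 18570 unmatched Etv6 peaks held a median of 46 tags (45 to 46) against 76 (75 to 77), and they lay in H3K4me2 about as often as matched ones, 52.8% (52.1 to 53.5) against 51.8% (50.9 to 52.7). At the median ratio, 14 Pax6 tags stand beside 48.4 Etv6 tags, above the 18 of the weakest Etv6 peak and below the median of 54. In the same way 46 Etv6 tags stand beside 13.3 Pax6 tags, above the 10 of the weakest Pax6 peak and below the median of 19. Scaled in this way, 38.9% (37.5 to 40.4) of the unmatched Pax6 peaks would reach the median Etv6 peak and 23.2% (22.6 to 23.9) of the unmatched Etv6 peaks the median Pax6 peak. Of the unmatched Etv6 peaks, 76.5% (75.8 to 77.1) would reach 10 Pax6 tags. The median ratio comes only from places with a peak in both libraries, and it is above the 0.220 of the kept tags. At 0.220 fewer unmatched Etv6 peaks would reach 10 Pax6 tags. These shares therefore do not say how many could have been called in the Pax6 library.

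Few unmatched peaks were near misses. The nearest Etv6 summit lay a median of 18161 bp (17211 to 18911) from an unmatched Pax6 summit, within 2 kb for 3.83% (3.28 to 4.44), within 10 kb for 31.6% (30.2 to 33.0) and within 100 kb for 88.6% (87.6 to 89.5). The nearest Pax6 summit lay a median of 31851 bp (31004 to 32755) from an unmatched Etv6 summit, within 2 kb for 1.59% (1.41 to 1.78), within 10 kb for 18.5% (18.0 to 19.1) and within 100 kb for 82.1% (81.5 to 82.6). The Etv6 list is the longer one. With only as many top-scoring Etv6 peaks as there were Pax6 peaks, the medians were 31271 bp (30113 to 32423) for Pax6 and 32708 bp (31065 to 33751) for Etv6, with overlapping intervals, so the difference between the lists did not hold at equal length. With summits within 200 bp as the match, the Pax6 median was 8662 bp (8109 to 9148).

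**Figure D3:**
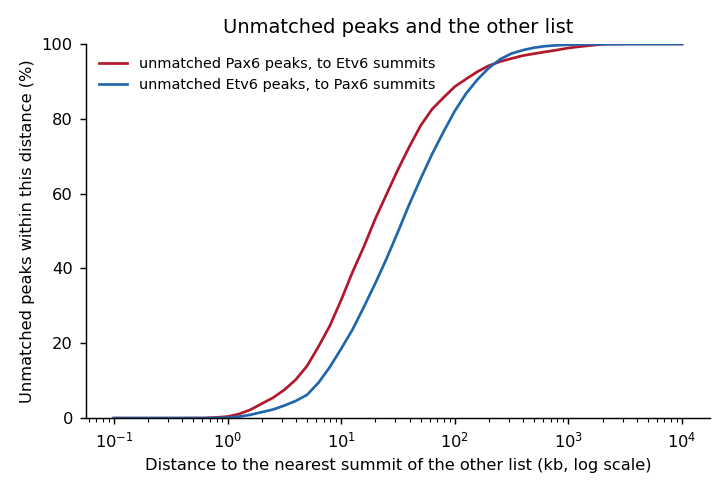
Share of unmatched peaks (y axis, %) whose nearest summit in the other list lies within the distance on the x axis (kb, log scale), for 4413 Pax6 and 18570 Etv6 peaks. Within 10 kb lie 31.6% of the Pax6 and 18.5% of the Etv6 peaks, and the curves cross beyond 100 kb.

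Larger unmatched peaks lay nearer to the other factor. Unmatched Pax6 peaks of 10 to 12 tags were a median of 21830 bp (19872 to 23356) from an Etv6 summit, and those of 24 to 177 tags 9204 bp (8029 to 11193). Unmatched Etv6 peaks of 18 to 39 tags were 40482 bp (39143 to 42023) from a Pax6 summit, and those of 120 to 614 tags 18557.5 bp (16403 to 21045). For Pax6 the distance was about equal inside H3K4me2, 18501 bp (17310 to 19739), and outside, 17934 bp (16806 to 18991). Unmatched Etv6 peaks inside H3K4me2 lay farther from Pax6, 35715.5 bp (34585 to 36633), than those outside, 27909.5 bp (27144 to 28904), although they held more tags, with medians of 50 and 42.

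The highest-scoring unmatched peaks were far from the other factor by the scale of a peak. Of the 4 Pax6 peaks, the first lay on chromosome 13 from 102630234 to 102631205, with 56 tags and 6357 bp to the nearest Etv6 summit. On chromosome 15 the peak from 61004572 to 61006804 had 144 tags and was 15823 bp away, and the one from 61060753 to 61062297 had 71 tags and was 6488 bp away. On chromosome 10 the peak from 86307982 to 86308766 had 33 tags, the highest fold of the 4 at 24.88, and was 34986 bp away. All 4 lay outside H3K4me2. All 4 Etv6 peaks lay inside it, on chromosome 8 from 73196472 to 73198357 with 288 tags and 167038 bp to the nearest Pax6 summit, on chromosome 13 from 78622035 to 78623659 with 296 tags and 32911 bp, on chromosome 7 from 133708817 to 133710490 with 230 tags and 79016 bp, and on chromosome 19 from 22990243 to 22992302 with 258 tags and 11739 bp. At the median ratio each of these Etv6 peaks would stand beside more Pax6 tags than the median Pax6 peak holds.

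A few unmatched peaks were megabases from the other factor. Over 1 Mb from the other factor were 47 Pax6 and 35 Etv6 peaks. The farthest Pax6 peaks were both on chromosome 3, from 45048806 to 45049482 at 2582989 bp with 10 tags and from 24300209 to 24301379 at 2258665 bp with 21 tags. The farthest Etv6 peaks were both on chromosome 14, from 41768294 to 41770259 at 3820975 bp with 91 tags and from 41698235 to 41698979 at 3749979 bp with 26 tags.

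Most peaks of both lists stood alone, 79.5% of Pax6 and 66.4% of Etv6 peaks, and the rest lay in small clusters. With at most 10 kb between neighbouring summits, 20.5% (19.8 to 21.1) of the Pax6 peaks fell into 1531 clusters and 33.6% (33.1 to 34.2) of the Etv6 peaks into 4463. Of the Pax6 clusters 1313 held 2 peaks, 182 held 3 and 36 held 4 or more, with 5 at most. Of the Etv6 clusters 3513 held 2, 716 held 3 and 234 held 4 or more, with 8 at most. With as many top-scoring Etv6 peaks as there were Pax6 peaks, 18.99% of the Etv6 peaks were in clusters, so the higher Etv6 share did not hold at equal list length.

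The number of close neighbours changed in a step at 5 kb in both lists. Neighbouring Pax6 summits were 2 to 5 kb apart in 73 to 84 cases per kb of spacing, and 5 to 10 kb apart in 263 to 325 cases per kb. For Etv6 the numbers were 341 to 380 and 787 to 899. The distance of unmatched Etv6 peaks to the nearest Pax6 summit had the same step, with 292 peaks at 4 to 5 kb and 465 at 5 to 6 kb, and that of unmatched Pax6 peaks to Etv6 summits had little of it, with 155 and 172. Per the file headers, the range for the regional background of a peak was 10000 bp in both lists. Its part in the step, and in the number of clusters, was not tested.

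**Figure D4:**
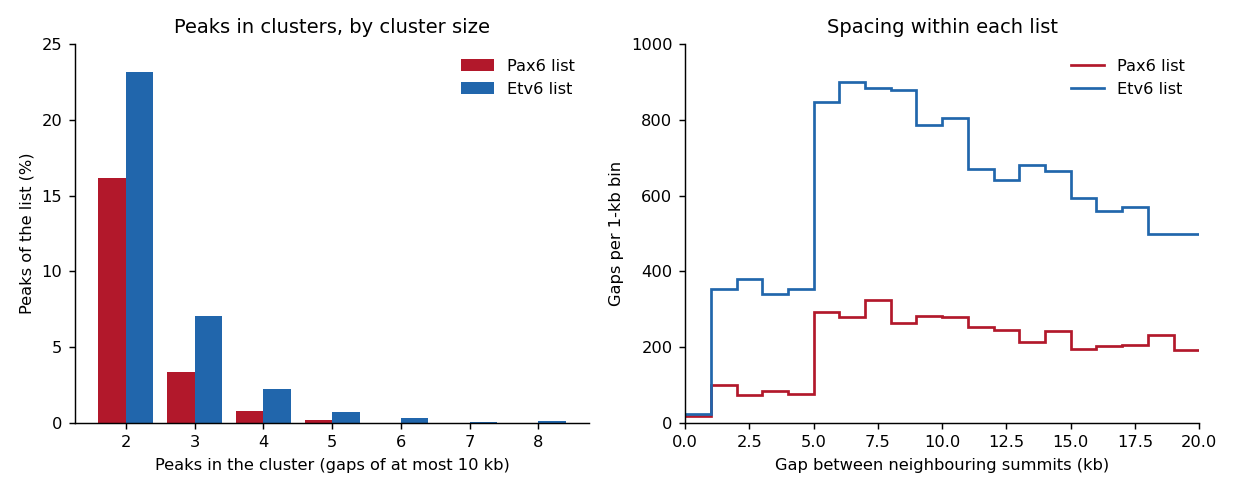
Left, share of each list's peaks (y axis, %) in clusters of 2 to 8 peaks (x axis), with at most 10 kb between neighbouring summits. Right, number of gaps between neighbouring summits of the same list (y axis, per 1-kb bin) by the size of the gap (x axis, kb). Both lists step up at 5 kb, from 77 to 292 gaps per kb for Pax6 and from 354 to 846 for Etv6.

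Clustered peaks were matched slightly more often than lone ones. Among Pax6 peaks 77.8% (76.4 to 79.2) of the clustered and 71.5% (70.7 to 72.3) of the lone peaks had an Etv6 partner, and among Etv6 peaks 40.8% (39.9 to 41.8) and 37.8% (37.2 to 38.5) had a Pax6 partner. H3K4me2 made little difference to clustering. Of the Pax6 peaks 20.3% (19.4 to 21.3) inside and 20.6% (19.8 to 21.4) outside H3K4me2 were clustered, and of the Etv6 peaks 33.7% (32.9 to 34.4) and 33.6% (32.8 to 34.4). Of the 218 Pax6 clusters of 3 or more peaks, every peak was matched in 106, some in 108 and none in 4. Of the 950 such Etv6 clusters, every peak was matched in 79, some in 685 and none in 186.

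When both lists were pooled, most clusters held both factors. Clusters of summits of either list with at least 2 separate regions numbered 5535, of which 73.9% (72.7 to 75.03) held both factors, 25.2% (24.05 to 26.4) Etv6 alone and 0.939% (0.702 to 1.23), or 52 clusters, Pax6 alone. In 737 clusters both factors had peaks but none overlapped. Of the 34753 separate regions of both lists, 18570 were unmatched Etv6 peaks and 4413 unmatched Pax6 peaks. Whether the shares of clusters differ from those that this mix would give was not tested. Of the unmatched Pax6 peaks 32.2% (30.9 to 33.6) lay in a pooled cluster with an Etv6 peak. Of all unmatched peaks, 13.1% (12.1 to 14.2) of Pax6 and 13.6% (13.1 to 14.1) of Etv6 were within 10 kb of a matched peak of their own list, against 17.4% (16.7 to 18.1) and 17.1% (16.4 to 17.8) of matched peaks with another matched peak that near.

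The pooled clusters with the most peaks differed in how evenly the factors filled them. The largest, on chromosome 13 from 23634517 to 23678362, held 8 Pax6 and 7 Etv6 peaks within 42753 bp of summit spacing. Of its Pax6 peaks 7 were matched, 2 of them by the same Etv6 peak of 129 tags, and its tag ratios ran from 0.178 to 0.510. On chromosome 18 from 39004960 to 39050772, 6 Pax6 and 8 Etv6 peaks held 5 matches with ratios between 0.241 and 0.309 and no EGFP_OK peak. On chromosome 2 from 52787737 to 52829350, all 5 Pax6 peaks were matched among 8 Etv6 peaks, with ratios from 0.144 to 0.406. On chromosome 4 from 88418790 to 88452406, all 4 Pax6 peaks were matched among 8 Etv6 peaks. There the 4 ratios, from 0.598 to 0.761, were all past 2-fold above the median of all matches, while the other 4 Etv6 peaks, with 72, 115, 84 and 80 tags, had no Pax6 peak. That cluster also held 12 H3K4me2 peaks.

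**Figure D5:**
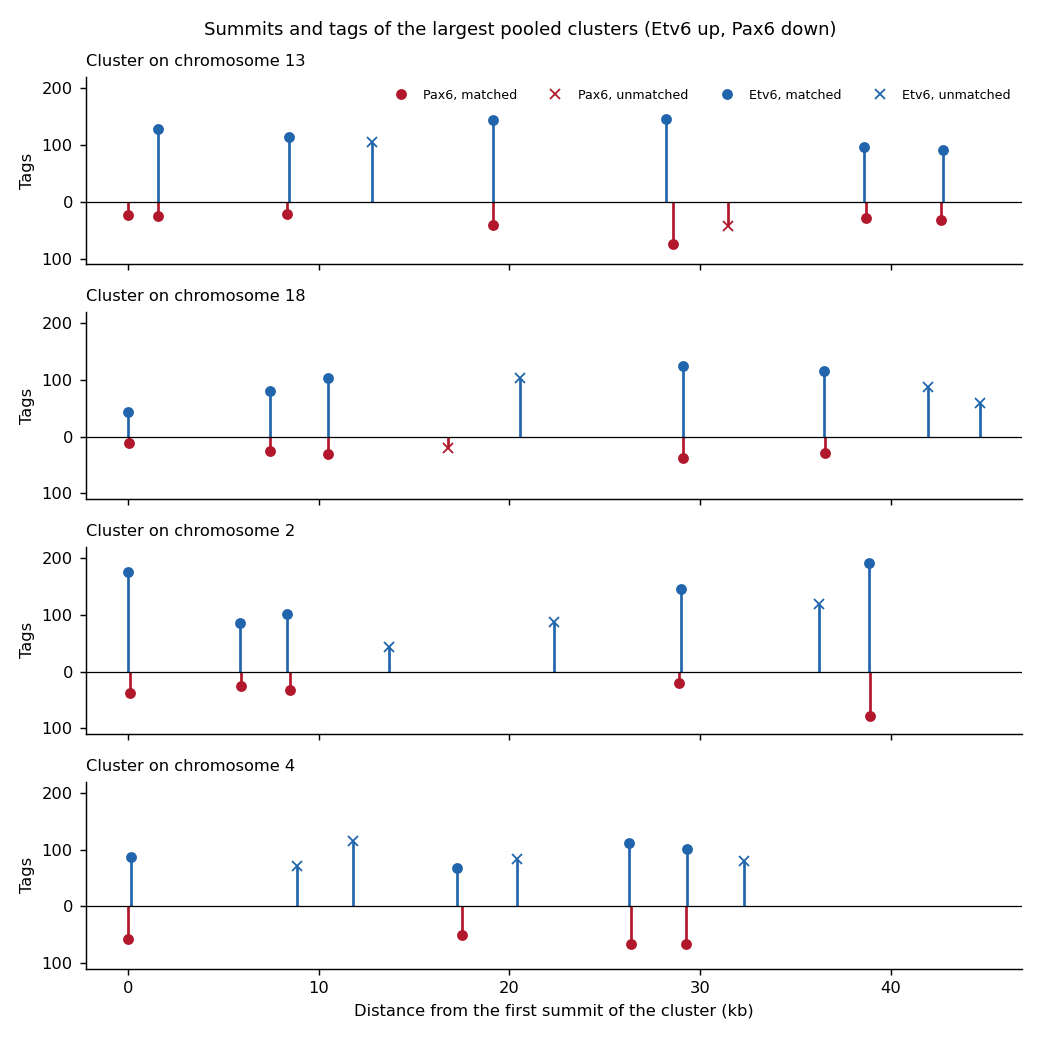
Summits of the 4 pooled clusters with the most peaks, placed by distance from the first summit of the cluster (x axis, kb), with the tags of each peak as the length of its line, Etv6 upward and Pax6 downward. Circles are matched peaks and crosses unmatched ones. In the cluster on chromosome 4 the 4 matched Pax6 peaks hold 51 to 67 tags against 67 to 112 in their Etv6 partners, and 4 Etv6 peaks are unmatched.

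Tag ratios of neighbouring matches were more alike the nearer they lay. Spearman's rho between the ratios of neighbouring matches was 0.298 over 1093 neighbours at most 10 kb apart, 0.140 over 6185 at 10 to 100 kb and 0.120 over 4523 farther apart. The tags of the neighbouring Etv6 peaks had rho of 0.400, 0.144 and 0.0662 in the same order, so neighbours also resembled each other in the size that moves with the ratio, and that part was not tested. The nearest class also includes Pax6 peaks that share an Etv6 peak, as 50 Etv6 peaks had 2 Pax6 peaks, and such neighbours have the same Etv6 tags. All neighbours share libraries and local background, and the values are descriptions.

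Across the chromosomes the 2 lists thickened and thinned together. Over 2479 windows of 1 Mb, Spearman's rho of the numbers of peaks was 0.888, with 307 windows empty in both lists, which share the mappability of each window. Pax6 peaks outnumbered Etv6 peaks in 208 windows. In the 625 windows with 20 or more Etv6 peaks, the matched share of Etv6 peaks had a median of 39.3% (37.9 to 40.7) and ran from 3.57% to 81.8%. The windows named here were chosen after their values were seen. On chromosome 9 from 108000001 to 109000000 there were 28 Etv6 peaks, of which 1 was matched, and 2 Pax6 peaks. On chromosome 2 from 29000001 to 30000000 there were 25 Etv6 peaks and 1 Pax6 peak. At the other end, on chromosome 1 from 152000001 to 153000000, 18 of 22 Etv6 peaks were matched and 29 Pax6 peaks were called. The reverse imbalance was seen on chromosome 14 from 101000001 to 102000000, with 12 Pax6 peaks, 5 Etv6 peaks and 1 match.

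The chromosomes differed moderately. The matched share of Pax6 peaks was lowest on chromosome 14, at 60.8% (56.2 to 65.2), and on chromosome 5, at 64.7% (61.0 to 68.2), and highest on chromosome 11, at 77.2% (74.3 to 79.9). The median tag ratio ran from 0.260 (0.247 to 0.270) on chromosome 11 to 0.311 (0.298 to 0.322) on chromosome 12, and on 11 of the 19 chromosomes its interval held the overall median. Among 1041 windows of 1 Mb with at least 5 matches, the median ratio lay between 0.198 and 0.422 from the 5th to the 95th percentile. It was lowest on chromosome 19 from 8000001 to 9000000, at 0.105 over 5 matches, and highest on chromosome 4 from 58000001 to 59000000, at 0.727 over 7 matches.

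One stretch of chromosome 15, from 60000001 to 62000000, held large peaks of both factors, and folds there were low in all 4 libraries. It was singled out after its values were seen, because the highest-ranked Pax6-leaning match and 2 of the 4 highest-scoring unmatched Pax6 peaks lay in it. Its 59 Pax6 peaks had a median of 45 tags against 19 elsewhere, and its 56 Etv6 peaks 142.5 tags against 54. The EGFP_OK peaks there had 86 tags against 48, and the H3K4me2 peaks 116.5 against 122. The authors' median folds were below those elsewhere, 8.58 against 10.56 for Pax6 and 5.5 against 6.25 for Etv6. The same held for EGFP_OK, with 6.21 against 7.02, and for H3K4me2, with 4.98 against 5.82. The 38 matches had a median ratio of 0.288 (0.226 to 0.331), an interval that holds the median of all matches. Single ratios ran from 0.113 to 2.28, the latter in the match that led to the choice. Of the 38, 5 were past 2-fold above and 4 past 2-fold below the median of all matches. Among all matches those shares were 5.90% and 6.53%. Of the 48 unmatched Pax6 peaks with over 40 tags, 7 lay in this stretch, which held 59 of all 16233 Pax6 peaks. The 7 include the 2 for which the stretch was chosen, so they are no separate evidence about it. In the 4 Mb before it, from 56000001 to 60000000, the median was 18.5 tags for Pax6 and 63 for Etv6. Median folds in those 4 Mb were 10.56 for Pax6, 6.04 for Etv6, 6.56 for EGFP_OK and 5.14 for H3K4me2.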

How the data were processed

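Peaks were called on each library separately with MACS 1.4.2 without a control file, per the file headers, at a p cutoff of 1e-05 with at most 1 tag per position, a model fold between 10 and 30 and a 10000 bp range for the regional background. The submitters' processing notes also name CASAVA 1.8.1, BWA 0.6.2 and build mm9. Tag counts per peak were deposited by the authors without normalization. The deposited score is 10 times the −log10 of the caller's p-value, reaching 3100 at most. The fold enrichment, a ratio to the library's own local background per the file headers, was used only within a list.

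From these files the summit was taken as start + summit - 1. A peak with several partners got the one with the longest overlap. Medians have exact order-statistic intervals, and ratios of tags exact binomial ones, all at 95%. With 1 library per factor, no p-value was computed. A peak lay in H3K4me2 when its summit did, and in EGFP_OK when the peaks overlapped. Pooled clusters had at most 10 kb between neighbouring summits and at least 2 non-overlapping regions. The functions ran in Python 3.11.15 with scipy 1.17.1, pandas 2.3.3 and numpy 2.4.6 and were tested on simulated lists. Windows of 1 Mb, 1-kb gap classes, ratios of neighbouring matches and the stretch of chromosome 15 were chosen after seeing the data.

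The members and rules were chosen with earlier results of these data known. Outside the top 20 peaks of any library, the rule for regions named the 5 matches with the best worse rank, the 5 highest and 5 lowest ratios by interval bound, the 4 highest-scoring and 2 farthest unmatched peaks per list and the 4 pooled clusters with the most peaks, and beside these the matches in the top 20 of both lists. Alternatives changed the overlap, score limit, list length, top regions, chromosome X, partner, peak length and cluster gap. No mm9 genome or gene annotation was used here, so peaks carry no gene names or sequences.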

Additional observations from a re-analysis of the deposited data

Results flagged for a closer look

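Peaks off chromosomes 1 to 19 were left out of the comparison and are given here because each count passes 3, the limit that a count of 0 allows, which is a bound and not an expected number. Chromosome X held 371 Pax6 and 563 Etv6 peaks. Of these Pax6 peaks 61.99% (56.8 to 66.96) were matched, with a median summit distance of 82.5 bp (65 to 98) and a median tag ratio of 0.341 (0.319 to 0.359), above the 0.289 of chromosomes 1 to 19. Chromosome Y and unplaced sequences held 42 Pax6 and 53 Etv6 peaks.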

How the results depend on the processing

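Of 57 recomputed values, 23 stayed within the 95% interval of the reported value and 34 did not. Adding chromosome X, leaving out the top 20 regions of any list and taking the nearest summit as partner moved none of them. With summits within 200 bp as the match, the matched shares were 60.4% of Pax6 and 32.3% of Etv6 peaks, the median summit distance 59 bp, the share within 100 bp 73.1%, the median tag ratio 0.293, and the median distances of unmatched Pax6 and Etv6 peaks 8662 and 26665.5 bp. With an overlap of at least 0.5 of both peaks, the shares were 65.8% and 35.2%, the share within 100 bp 61.7%, the ratio 0.302 and the distances 11775.5 and 28761 bp. With scores of at least 100 in both lists, the shares were 80.5% and 24.1%, the summit distance 62 bp, the share within 100 bp 67.2%, the ratio 0.324, the distances 38065 and 136462 bp, and the shares in clusters 7.49% of Pax6 and 16.6% of Etv6 peaks. With equal list lengths, the shares were 55.2% and 54.9%, the summit distance 72 bp, the share within 100 bp 62.02%, the ratio 0.262, the distances of unmatched Pax6 and Etv6 peaks 31271 and 32708 bp and the Etv6 share in clusters 18.99%. Per kb of peak the ratio was 0.365. With cluster gaps of at most 5 kb, 4.31% of Pax6 and 9.42% of Etv6 peaks were in clusters, and at most 25 kb, 49.3% and 68.6%. The causes were not tested. Stricter limits also left fewer peaks or fewer matches. No paired analysis was possible because each factor had 1 library. The Pax6 library kept 5288154 tags, and the part of depth in the absence of Pax6 peaks at weak Etv6 sites was not tested.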

Other observations

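The step in the spacing of neighbouring summits at 5 kb was also present in the lists not compared above. In the EGFP_OK list neighbouring summits were 4 to 5 kb apart in 247 cases and 5 to 6 kb apart in 549, and in the H3K4me2 list in 1026 and 1712 cases. All 4 lists were called with the same regional background range of 10000 bp, per the file headers.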
